A study of Mus musculus with 14 samples.

Results

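The 44 genes described here encode enzymes that build, sulfate or trim the glycans of glycoproteins, glycolipids and proteoglycans. They are the genes in a table of sorted mouse mammary cells whose symbols begin with one of a set of family names, which run from the B3g and B4gal families to Galnt, St3gal, Hs3st, Chst, Has and Sulf. They were measured by 66 of the 8499 probe sets with a single gene symbol, and they are 44 of 6044 named genes in that table. RefSeq lists 141 protein-coding mouse genes under the same family names, and the other genes of these families were not analysed here. Of the 44 genes, 7 start mucin-type O-glycans (the Galnt family), 8 add sialic acid, 8 extend or cap chains, 14 make or edit glycosaminoglycans and 7 have other roles.

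RNA came from 5 populations of mammary epithelial cells of virgin female C57BL/6 mice aged 6 to 8 weeks, with no transgene or treatment in any group, and was hybridised to 14 Affymetrix arrays. Cells were stained for CD45, CD31 and Ter119, markers of blood and endothelial cells, and double sorted on CD24, CD49f and Thy-1. The study's methods also name an antibody to CD140α, a marker of stromal fibroblasts, without saying for which sorts it was used. The luminal populations were CD24highCD49fmed, labelled luminal progenitors (3 arrays), and CD24medCD49f-/low, labelled differentiated luminal cells (2 arrays). The basal populations had 3 arrays each and were Thy-1+CD24medCD49fhigh, labelled stem cells, Thy-1-CD24medCD49fhigh, labelled progenitors, and CD24medCD49fmed, labelled myoepithelial cells, for which the study's methods write CD24lowCD49fmed. Whether each replicate was a different mouse is not in the labels, so p-values measure only the spread between these arrays.

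Glycans are assembled mostly in the Golgi, by enzymes that each add a single sugar or sulfate to a growing chain. Mucin-type O-glycans begin with N-acetylgalactosamine on serine or threonine, whereas heparan and chondroitin sulfate are long sulfated chains on proteoglycan core proteins that bind growth factors and basement membrane. In the mammary gland, basal cells lie on the basement membrane and luminal cells face the duct, where mucins line the surface and lactose is made in lactation by B4galt1 together with alpha-lactalbumin.

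Values are log2 signals that the authors centred on the mean of the 14 arrays for each probe set, so 0 is that mean and levels of different genes cannot be set against each other. Whether a gene was at background in an array cannot be seen, and each probe set in the table had a range of at least 2.0 log2, so that every gene described had to differ between some arrays. Marker genes followed the division of the labels into luminal and basal. Between the basal populations 0 of 15 basal markers differed at the threshold given below, where at most 0.0417% of all rows did. With so few calls, this count cannot show whether the markers tell the basal labels apart. The mean of 15 measured basal markers lay between -2.53 and -2.78 in the luminal arrays and between 0.56 and 2.02 in the basal arrays, and the mean of 14 luminal markers lay between 1.45 and 1.75 in the luminal arrays and between -1.64 and 0.09 in the basal arrays. Thy-1+CD24medCD49fhigh replicates 1 and 3 stood apart, with medians over all 7190 rows (genes, and probe sets with no or several symbols) of -0.74 and -0.51, while the other 12 arrays had medians between -0.15 and 0.28.

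Promoter sequence is shown for a pair of genes that fell together in luminal cells and for a pair that rose. Hs3st3a1 and Hs3st3b1 encode heparan sulfate 3-O-sulfotransferases and lie on chromosome 11 with 1 protein-coding gene, Cox10, between them. Galnt15 had the largest luminal rise of the 44 genes, and B4galt1 is the galactosyltransferase of lactose synthase. Each run is the 150 bases before the RefSeq start (GRCm38.p6), written 5′ to 3′ on the gene's strand, and capitals mark the matches to the motifs searched. The runs come from chr11:64435182-64435331 (plus strand) for Hs3st3a1, chr11:63922285-63922434 (minus strand) for Hs3st3b1, chr14:32028953-32029102 (plus strand) for Galnt15 and chr4:40853985-40854134 (minus strand) for B4galt1.
Hs3st3a1: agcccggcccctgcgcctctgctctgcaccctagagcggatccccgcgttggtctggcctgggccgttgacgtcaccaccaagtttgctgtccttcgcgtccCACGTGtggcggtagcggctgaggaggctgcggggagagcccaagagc
Hs3st3b1: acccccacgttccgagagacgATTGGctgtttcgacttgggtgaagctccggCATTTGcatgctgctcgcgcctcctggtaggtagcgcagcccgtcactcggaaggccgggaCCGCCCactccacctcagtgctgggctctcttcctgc
Galnt15: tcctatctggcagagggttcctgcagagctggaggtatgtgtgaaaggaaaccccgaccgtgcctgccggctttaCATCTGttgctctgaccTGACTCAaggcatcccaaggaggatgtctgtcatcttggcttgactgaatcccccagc
B4galt1: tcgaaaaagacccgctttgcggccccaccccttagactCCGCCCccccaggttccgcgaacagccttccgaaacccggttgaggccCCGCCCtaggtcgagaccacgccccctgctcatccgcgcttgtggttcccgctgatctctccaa

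Motifs were sought on both strands, without regard to overlap between motifs. The Hs3st3a1 run held 1 E-box (CANNTG) and none of the others. The Hs3st3b1 run held 1 CCAAT box, 1 GC box (GGGCGG) and 1 E-box. The Galnt15 run held 1 E-box and 1 AP-1 motif (TGANTCA), and the B4galt1 run held 2 GC boxes. No run held a TATA box (TATAAA). Among 32851 RefSeq promoter windows of the same length, 47.7% held an E-box, 28.6% a GC box, 24.5% a CCAAT box, 7.6% a TATA box and 4.2% an AP-1 motif. RefSeq promoters were matched for 30 of the 44 genes. A match is a run of letters and says nothing of binding.

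The first comparison set the mean of the luminal populations against the mean of the basal populations over all 14 arrays. In luminal cells 5 of 5 genes for heparan sulfate chains and 3 of 5 for chondroitin sulfate were lower. So were the hyaluronan synthase gene Has2 and the sulfatase gene Sulf1, while the sulfatase gene Sulf2 was higher. Of 7 Galnt genes 3 were higher and 1 was lower. Of 8 genes that extend or cap chains 3 were higher, B4galt1 among them, and 4 were lower. Of 2 N-glycan branching genes 1, Mgat5, was higher. Of the 44 genes, 30 passed the threshold of a limma Benjamini-Hochberg adjusted p under 0.05, taken over all rows, where 45.1% of all rows passed. Luminal cells had lower levels of 21 genes (47.7% of the 44, against 17.4% of all rows) and higher levels of 9 (20.5%, against 27.7%). The median difference was -0.78 for the 44 genes and 0.33 for all rows. In such sorted bulk samples, fewer cells of a type and less RNA per cell cannot be told apart.

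Among the 14 glycosaminoglycan genes, 10 were lower, 1 was higher and the median difference was -2.21, while the other 30 genes had 11 lower, 8 higher and a median of -0.49. The arrays of the groups did not overlap for 19 genes (26% of all rows), 12 of them lower (9.51% of all rows) and 7 higher (16.5% of all rows). Centring each array on its median moved the median of all rows from 0.33 to 0.06. The calls over all rows then went from 1989 higher and 1253 lower to 1430 and 1569, and those of the 44 genes from 9 and 21 to 8 and 24. Without Thy-1+CD24medCD49fhigh replicates 1 and 3, a setting chosen after seeing the data, 9 genes were higher and 25 lower, where 27.2% of all rows were higher and 22.5% lower.

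**Figure D1:**
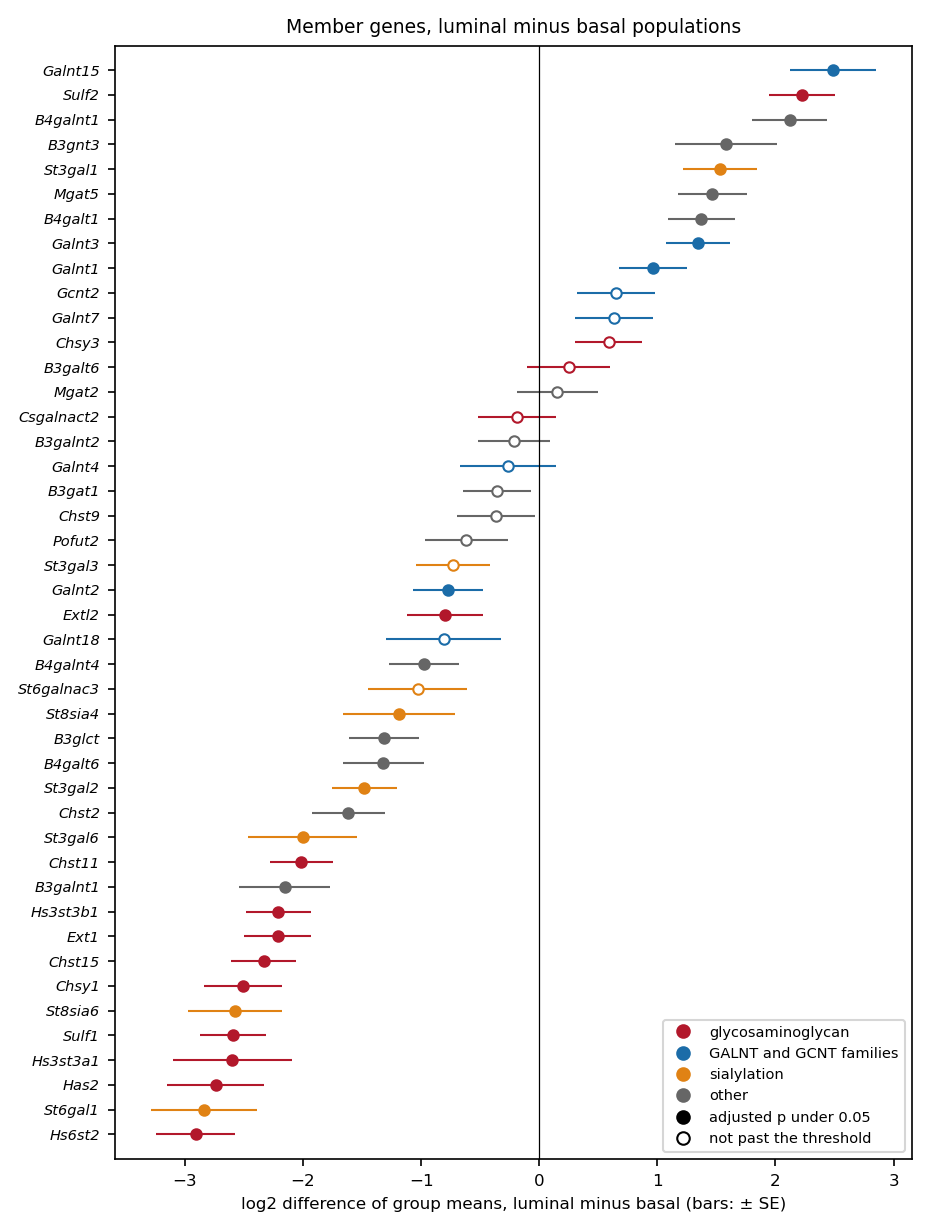
Difference of each of the 44 genes between luminal and basal arrays (log2, mean of 2 luminal minus mean of 3 basal populations, bars ± SE), coloured by family, with filled points for an adjusted p under 0.05. Glycosaminoglycan genes make up 10 of the 21 genes that were lower, and Sulf2 is the glycosaminoglycan gene that was higher.

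Each of the 5 measured genes for heparan sulfate chains and their sulfation was lower in luminal cells. Hs6st2, which encodes a 6-O-sulfotransferase, had values of 0.08, 1.77 and -0.68 in Thy-1+CD24medCD49fhigh, 1.54, 1.10 and 1.32 in Thy-1-CD24medCD49fhigh and 1.10, 1.60 and 1.51 in CD24medCD49fmed arrays. In the luminal arrays it lay between -2.08 and -1.68. All 9 basal arrays were thus above all 5 luminal arrays, and the difference was -2.91 (SE 0.34, limma adjusted p = 1.16e-06).

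Hs3st3a1 was 1.88, 2.07 and 1.96 in the CD24medCD49fmed arrays and reached 1.99, 0.79 and 1.87 in the Thy-1-CD24medCD49fhigh arrays. The Thy-1+CD24medCD49fhigh arrays gave -2.03, 2.04 and -2.04, and in the luminal arrays it lay between -2.17 and -1.22. Thy-1+CD24medCD49fhigh replicates 1 and 3 were therefore within the luminal range while the other 7 basal arrays were above it. The difference was -2.60 (SE 0.50, 6.06-fold, limma adjusted p = 0.000331). Its neighbour Hs3st3b1 lay between -2.03 and -1.01 in the luminal arrays and between -0.14 and 1.42 in the basal arrays, with a difference of -2.21 (SE 0.28, limma adjusted p = 2.92e-06). Its groups did not overlap, and the lowest basal arrays were again Thy-1+CD24medCD49fhigh replicates 1 and 3, at -0.14 and -0.03.

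Ext1, a subunit of the polymerase that elongates heparan sulfate, was -1.61 to -1.30 in luminal arrays and -0.02 to 1.26 in basal arrays, with a median of 1.10 over the latter. It had a difference of -2.22 (SE 0.28, limma adjusted p = 3.49e-06) with no overlap. Extl2, an Ext1-like transferase that acts on the linker of these chains, had overlapping groups and the smallest difference of the family, -0.80 (SE 0.32, limma adjusted p = 0.0498), close to the threshold.

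Sulf1 and Sulf2, a pair of secreted enzymes that both remove 6-O-sulfate from finished heparan sulfate, went in opposite directions. Sulf1 lay between -2.03 and -1.41 in the luminal arrays and between -0.09 and 1.60 in the basal arrays, a difference of -2.60 (SE 0.28, limma adjusted p = 4.29e-07). Sulf2 was 0.99, 1.01 and 1.19 in the CD24highCD49fmed arrays and 2.06 and 1.65 in the CD24medCD49f-/low arrays. In the basal arrays it lay between -1.45 and -0.07, and the difference was 2.23 (SE 0.28, 4.68-fold, limma adjusted p = 3.18e-06). Neither gene had overlapping groups.

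Of 5 chondroitin and dermatan sulfate genes, 3 were lower in luminal cells. Chsy1, a chondroitin synthase, was -1.46, -1.49 and -1.42 in the CD24highCD49fmed arrays and -1.84 and -1.75 in the CD24medCD49f-/low arrays. In the basal arrays it ran from -0.56 to 1.62 with a median of 1.23. No basal array reached the luminal range, and the difference was -2.51 (SE 0.33, limma adjusted p = 4.81e-06). Chst15, which adds a second sulfate to chondroitin 4-sulfate, was -1.72 to -1.17 in luminal and 0.24 to 1.47 in basal arrays, with a difference of -2.33 (SE 0.28, limma adjusted p = 1.56e-06). Chst11, a chondroitin 4-O-sulfotransferase, was -1.48 to -1.15 and -0.04 to 1.03, with a difference of -2.01 (SE 0.26, limma adjusted p = 4.97e-06).

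The groups of Chst15 and Chst11 did not overlap either. Csgalnact2, which starts chondroitin chains, differed by -0.19 (SE 0.33, limma adjusted p = 0.647), short of the threshold. B3galt6, the galactosyltransferase of the linker shared by heparan and chondroitin sulfate, differed by 0.25 (SE 0.35, limma adjusted p = 0.570) and by -0.02 after median centring. The chondroitin synthase gene Chsy3 differed by 0.59 (SE 0.28, limma adjusted p = 0.0938). Its 2 probe sets were only weakly correlated across the 14 arrays (r = 0.190) and gave 1.33 and -0.16, of which the first passed the threshold when each probe set was tested on its own row.

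Has2, a hyaluronan synthase, was -0.96, -1.64 and -1.55 in the CD24highCD49fmed arrays and -2.18 and -2.22 in the CD24medCD49f-/low arrays. Basal values were -1.14, 1.75 and -1.07 for Thy-1+CD24medCD49fhigh, 2.22, 1.09 and 0.83 for Thy-1-CD24medCD49fhigh and 1.32, 2.00 and 1.54 for CD24medCD49fmed arrays. As with Hs3st3a1, Thy-1+CD24medCD49fhigh replicates 1 and 3 were at luminal values and replicate 2 was not. The difference was -2.74 (SE 0.41, limma adjusted p = 2.41e-05).

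**Figure D2:**
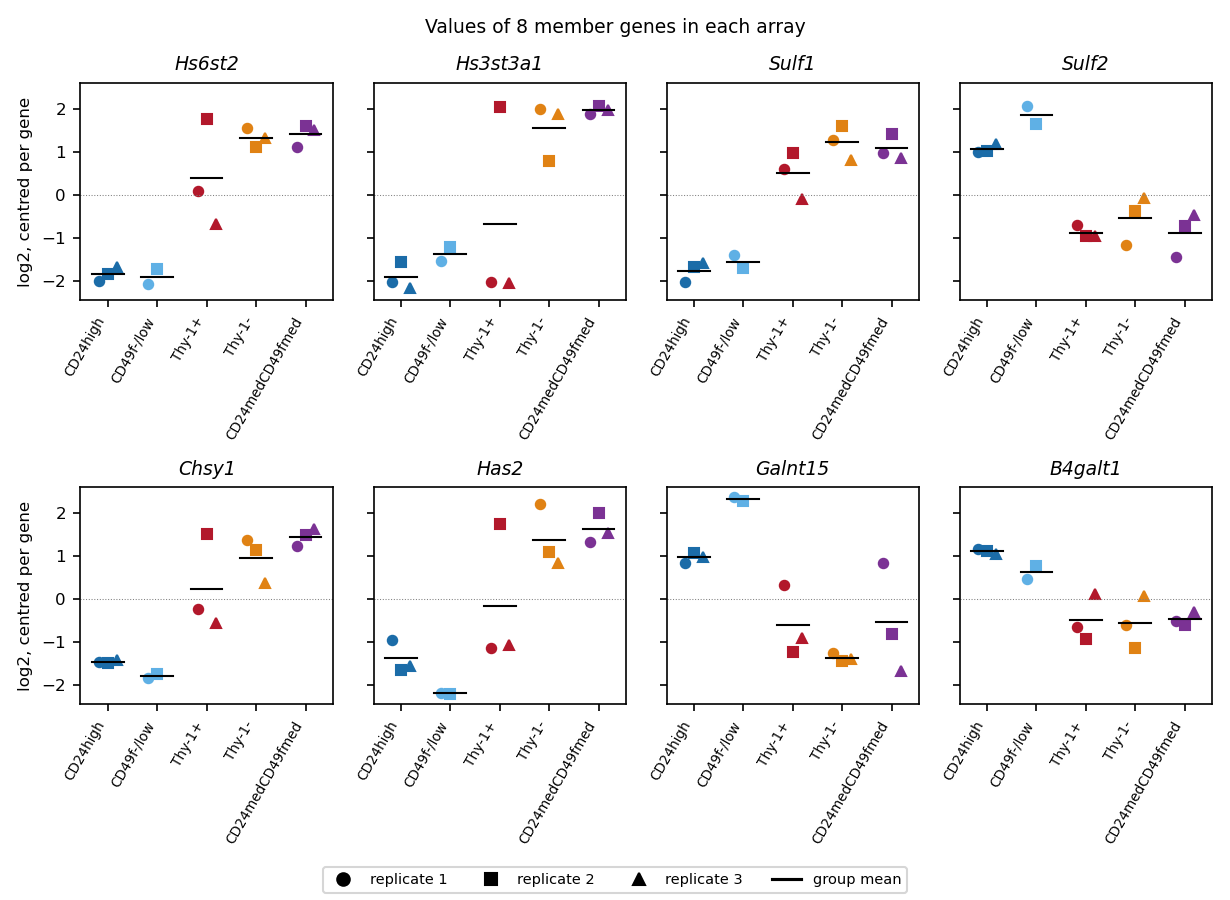
Values of 8 genes in each of the 14 arrays (log2, centred per gene on 0, symbols by replicate number, lines at population means; CD24high is CD24highCD49fmed, CD49f-/low is CD24medCD49f-/low, and Thy-1+ and Thy-1- are the CD24medCD49fhigh populations). Hs3st3a1 and Has2 are near the luminal values in Thy-1+ replicates 1 and 3 (-2.03 and -2.04, and -1.14 and -1.07) and high in replicate 2 (2.04 and 1.75).

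Among 8 sialyltransferase genes, 5 were lower in luminal cells and 1 was higher. St6gal1, which caps N-glycans with sialic acid, was 0.84, 2.11 and -1.70 in Thy-1+CD24medCD49fhigh, 1.24, 1.54 and 1.20 in Thy-1-CD24medCD49fhigh and 0.95, 1.67 and 1.16 in CD24medCD49fmed arrays. In the luminal arrays it ran from -2.37 to -0.94 with a median of -1.94. Of the basal arrays, Thy-1+CD24medCD49fhigh replicate 3 fell in the luminal range. The difference was -2.84 (SE 0.45, limma adjusted p = 4.14e-05), and -2.58 (SE 0.40, limma adjusted p = 3.10e-05) for St8sia6, a sialyltransferase that adds a second sialic acid mainly on O-glycans.

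St8sia6 was also in the luminal range, -2.00 to -1.35, in Thy-1+CD24medCD49fhigh replicate 3 (-1.74), while the remaining basal arrays were at 0.01 or above. St3gal2, which sialylates O-glycans and gangliosides, had a difference of -1.48 (SE 0.28, limma adjusted p = 0.000225) without overlap. St3gal1, which sialylates the same core O-glycan, was the sialyltransferase gene that was higher in luminal cells. It ran from 0.66 to 1.65 in luminal arrays and from -1.55 to 0.06 in basal arrays, a difference of 1.53 (SE 0.31, limma adjusted p = 0.000581).

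St3gal6, St8sia4 and St6galnac3 had a spread of their own in the basal arrays. St3gal6, which sialylates lactosamine ends, was 2.38, 0.64 and -0.80 in Thy-1+CD24medCD49fhigh, 0.93, -0.49 and 0.81 in Thy-1-CD24medCD49fhigh and 2.17, 1.23 and -0.37 in CD24medCD49fmed arrays. St8sia4, a polysialic acid synthase, was 2.21, -0.07 and -0.56 in Thy-1+CD24medCD49fhigh, 0.04, -0.46 and -0.68 in Thy-1-CD24medCD49fhigh and 2.75, 1.29 and -0.63 in CD24medCD49fmed arrays. Both were highest in replicate 1 of Thy-1+CD24medCD49fhigh and of CD24medCD49fmed cells.

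Luminal arrays lay between -1.46 and -1.15 for St3gal6 and between -0.93 and -0.58 for St8sia4. The differences were -2.00 (SE 0.46, limma adjusted p = 0.00148) for St3gal6 and -1.19 (SE 0.47, limma adjusted p = 0.0463) for St8sia4. St6galnac3, which adds sialic acid to already sialylated O-glycans, reached 2.87 in Thy-1+CD24medCD49fhigh replicate 1 and had a difference of -1.03 (SE 0.42, limma adjusted p = 0.0522), which did not pass. The mean of 13 measured endothelial markers was 2.82 in Thy-1+CD24medCD49fhigh replicate 1 and 2.34 in CD24medCD49fmed replicate 1, between -0.89 and 0.92 in the other 7 basal arrays and between -1.02 and -0.78 in the luminal arrays. Its part in these values was not tested. The call of St8sia4 was close to the threshold and was lost without Thy-1+CD24medCD49fhigh replicates 1 and 3. It was also lost with array weights, with quantile normalization and without any single CD24highCD49fmed array. Among the basal arrays, it was lost without Thy-1+CD24medCD49fhigh replicate 1 alone, and without replicate 1 or 2 of CD24medCD49fmed or Thy-1-CD24medCD49fhigh. It held without replicate 2 or 3 of Thy-1+CD24medCD49fhigh alone, and without replicate 3 of CD24medCD49fmed or Thy-1-CD24medCD49fhigh.

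**Figure D3:**
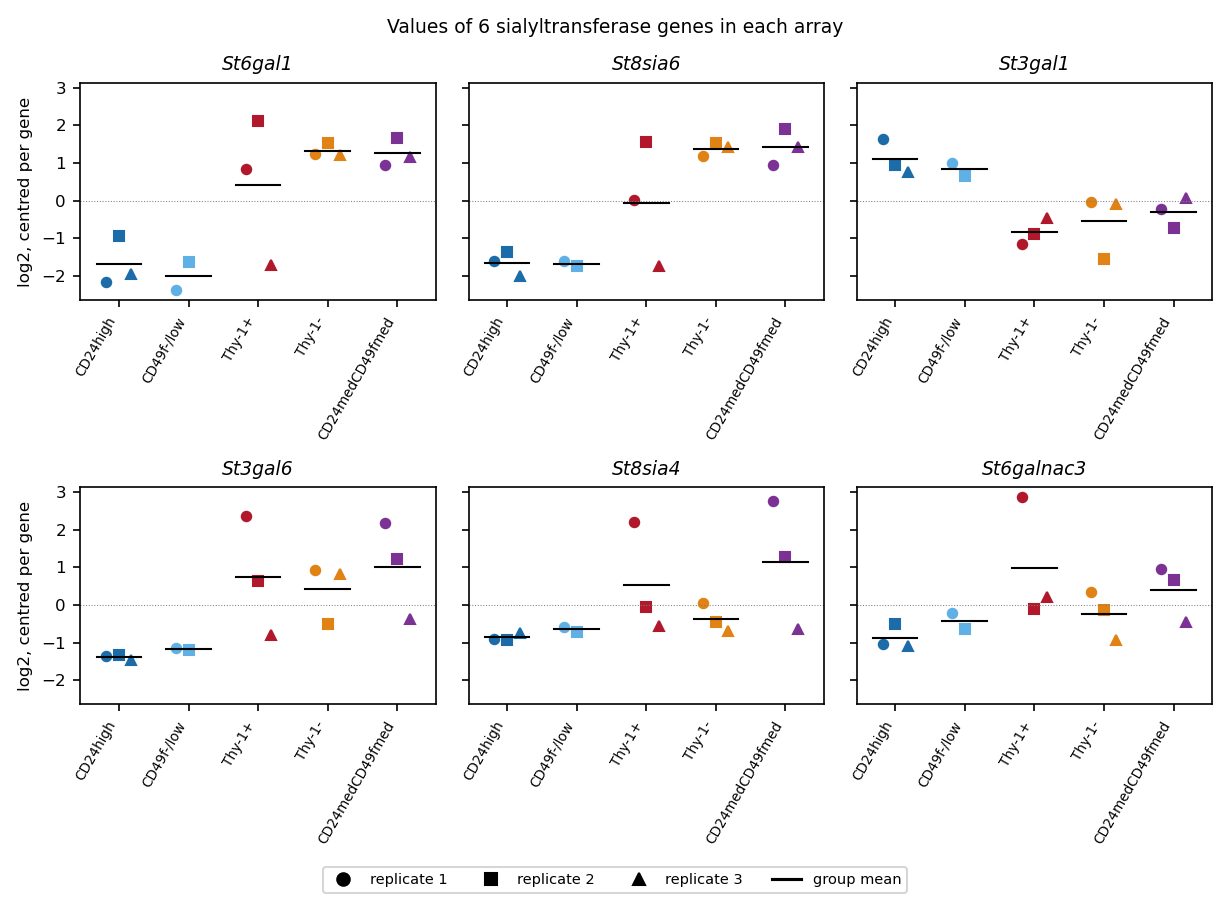
Values of 6 sialyltransferase genes in each of the 14 arrays (log2, centred per gene on 0, symbols by replicate number, lines at population means; CD24high is CD24highCD49fmed, CD49f-/low is CD24medCD49f-/low, and Thy-1+ and Thy-1- are the CD24medCD49fhigh populations). St3gal6, St8sia4 and St6galnac3 are highest in replicate 1 of the Thy-1+ (2.38, 2.21 and 2.87) and CD24medCD49fmed arrays (2.17, 2.75 and 0.97), whereas St6gal1 and St8sia6 are lowest among basal arrays in Thy-1+ replicate 3 (-1.70 and -1.74).

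Of the 7 Galnt genes, whose products start O-glycans, 3 were higher in luminal cells and 1 was lower, with a median difference of 0.63. Galnt15 was 0.83, 1.08 and 0.99 in the CD24highCD49fmed arrays and 2.37 and 2.28 in the CD24medCD49f-/low arrays. In the basal arrays it ran from -1.67 to 0.84 with a median of -1.24. The highest basal array, CD24medCD49fmed replicate 1, was just above the lowest luminal array, and the other 8 were below all luminal arrays, so that the groups overlapped by 1 array. The difference was 2.49 (SE 0.36, 5.60-fold, limma adjusted p = 1.80e-05).

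Galnt3 was 0.71 to 1.13 in luminal and -1.25 to 0.28 in basal arrays, with no overlap and a difference of 1.34 (SE 0.27, limma adjusted p = 0.000484). Galnt1 had a difference of 0.97 (SE 0.29, limma adjusted p = 0.0102), also without overlap. Galnt2 was lower (-0.77, SE 0.30, limma adjusted p = 0.0411) with overlapping groups, and its 3 probe sets correlated at 0.231 to 0.477. Galnt7 (0.63), Galnt4 (-0.26) and Galnt18 (-0.81) did not pass. Gcnt2, which makes I-type branches on lactosamine chains, did not pass either (0.65, SE 0.33, limma adjusted p = 0.111).

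Among 8 genes that extend or cap chains, 3 were higher in luminal cells and 4 were lower. B4galt1 was 1.17, 1.12 and 1.04 in the CD24highCD49fmed arrays and 0.46 and 0.77 in the CD24medCD49f-/low arrays. The basal arrays ran from -1.15 to 0.12 with a median of -0.61. Every luminal array was above every basal array, and the difference was 1.37 (SE 0.28, limma adjusted p = 0.000641). B4galnt1, the synthase of gangliosides GM2 and GD2, ran from 1.05 to 1.67 in luminal and from -1.99 to -0.01 in basal arrays, a difference of 2.12 (SE 0.32, limma adjusted p = 2.30e-05).

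B3gnt3, which extends O-glycans, had a difference of 1.58 (SE 0.43, limma adjusted p = 0.00565), with 1 high basal array, Thy-1+CD24medCD49fhigh replicate 1, at 1.42. After median centring its difference was 1.31 and its limma adjusted p 0.0523. B3galnt1, which makes globoside, was -1.82 to -0.91 in luminal and -1.18 to 1.82 in basal arrays, with the difference at -2.16 (SE 0.39, limma adjusted p = 0.000159). Thy-1+CD24medCD49fhigh replicate 3 was the basal array within the luminal range. B4galt6, a lactosylceramide synthase (-1.32), B3glct, which adds glucose to O-fucose on thrombospondin repeats (-1.31), and B4galnt4, which makes N,N-diacetyllactosamine (-0.98), were also lower (limma adjusted p = 0.00393, 0.00140 and 0.0119).

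Mgat5, which adds a branch to N-glycans, was 1.99, 0.87 and 0.97 in the CD24highCD49fmed arrays and 0.48 and 0.63 in the CD24medCD49f-/low arrays, with basal arrays between -1.26 and 0.06. The groups did not overlap, and the difference was 1.46 (SE 0.29, limma adjusted p = 0.000452). Mgat2, which starts an earlier branch, differed by 0.15 (SE 0.34, limma adjusted p = 0.726) and by -0.12 after median centring. Chst2, a sulfotransferase acting on N-acetylglucosamine, was -1.65 to -0.81 in luminal and -0.26 to 1.43 in basal arrays, with no overlap and a difference of -1.62 (SE 0.31, limma adjusted p = 0.000282). Chst9, a sulfotransferase acting on N-acetylgalactosamine (-0.37), B3gat1, which makes the HNK-1 epitope (-0.36), Pofut2, which adds O-fucose to thrombospondin repeats (-0.62), St3gal3, which sialylates lactosamine ends (-0.73), and B3galnt2, known from the glycan of dystroglycan (-0.21), did not pass.

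Markers of other cell types also differed between luminal and basal arrays, where 17.4% of all rows were lower and 27.7% higher in luminal cells. Of 10 measured fibroblast markers 8 were lower in luminal cells, and their mean was -1.77 to -0.70 in luminal and 0.19 to 2.01 in basal arrays. Within the basal arrays the highest fibroblast means were in Thy-1+CD24medCD49fhigh replicates 3 and 1 (2.01 and 1.26). These arrays also had the lowest medians of the 14 glycosaminoglycan genes (-0.82 and -0.22, against 0.70 to 1.09 in the other 7 basal arrays). Their medians over all rows were the lowest as well (-0.51 and -0.74). Of 13 endothelial markers 8 were lower in luminal cells, and of 7 pericyte and 7 Schwann cell markers 4 and 4 were lower and 1 and 1 higher. Of 10 cornified keratinocyte markers 5 were lower and 0 higher, and of 23 cell cycle genes 12 were lower and 1 higher. Of 6 myeloid markers 2 were higher and 0 lower, and of 3 adipocyte markers 1 was lower and 0 higher. The CD31 stain marks endothelial cells and CD140α marks fibroblasts. The part of any of these lists in the differences between luminal and basal arrays was not tested. The values are centred, so it cannot be seen whether any of these markers was at background.

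Genes that supply or carry the same glycans were counted in the same fit, on lists written with earlier results of these data known. The shares to set beside each list are those of all rows, 27.7% higher and 17.4% lower, with a median of 0.33. Of 17 proteoglycan core protein genes 10 were lower in luminal cells and 0 were higher, with a median of -1.42. Among them were Vcan, the core of versican (-4.18, SE 0.37), Bgn, the core of biglycan (-3.58, SE 0.30), and Tgfbr3, betaglycan (-3.34, SE 0.30). Their limma adjusted p was 4.12e-08, 1.99e-08 and 3.73e-08. Of 23 other glycosyltransferase genes 9 were lower and 7 higher, with a median of -0.05. The lowest were Dse and Dsel, the epimerases that turn chondroitin into dermatan sulfate, with differences of -3.20 (SE 0.44) and -2.07 (SE 0.27, limma adjusted p = 7.59e-06 and 4.79e-06), and the highest was C1galt1, the synthase of the core O-glycan that St3gal1 and St3gal2 sialylate (1.76, SE 0.29, limma adjusted p = 7.28e-05).

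Of 12 genes for mucins and mucin-like glycoproteins 8 were higher in luminal cells and 3 lower, with a median of 1.68. The largest rise was that of Dmbt1 (4.54, SE 0.43, limma adjusted p = 8.85e-08). Muc1 (2.40, SE 0.28) and Muc15 (2.60, SE 0.45) also rose (limma adjusted p = 1.23e-06 and 0.000113). The 3 that were lower were Glycam1, Cd34 and Emcn, of which Cd34 and Emcn are known from endothelial cells. Of 17 genes for sugar nucleotide and sulfate donors 10 were higher and 2 lower (median 0.86), among them Cmas, which activates sialic acid (1.58, SE 0.31, limma adjusted p = 0.000373). Of 9 Golgi transporters of these donors 6 were higher and 0 lower (median 1.11), among them Slc35a1, the CMP-sialic acid transporter (1.38, SE 0.28, limma adjusted p = 0.000439). Glycan-degrading enzymes had 5 of 16 higher and 3 lower (median 0.20), and lectins 2 of 13 higher and 4 lower (median -0.47).

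The next comparison set CD24highCD49fmed against CD24medCD49f-/low cells in their 5 arrays. Chsy3 and Galnt7 were higher in CD24highCD49fmed cells, and Galnt15 and St3gal3 were lower. These 4 of 44 genes passed (9.1%, against 5.59% of all rows, 3.02% higher and 2.57% lower), and 18 had an unadjusted p under 0.05, where 27% of all rows did. The median difference was 0.04 for the 44 genes and 0.14 for all rows. The groups did not overlap for 25 genes (47.4% of all rows), 15 higher (32.2% of all rows) and 10 lower (15.2% of all rows).

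Galnt15, given above, was more than 1 log2 higher in each CD24medCD49f-/low array than in any CD24highCD49fmed array, and the difference was -1.36 (SE 0.18, limma adjusted p = 0.0117). Chsy3 was 1.31, 0.85 and 0.84 in the CD24highCD49fmed arrays and -0.52 and -0.15 in the CD24medCD49f-/low arrays, a difference of 1.34 (SE 0.22, limma adjusted p = 0.0199). Its discordant probe sets gave 1.92 (limma adjusted p = 0.00589) and 0.75 (limma adjusted p = 0.151) here. Galnt7 was 0.76, 0.72 and 1.18 against -0.18 and -0.11, a difference of 1.03 (SE 0.20, limma adjusted p = 0.0300).

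St3gal3 was -0.88, -0.80 and -0.78 in the CD24highCD49fmed arrays against -0.05 and -0.08 in the CD24medCD49f-/low arrays, a difference of -0.75 (SE 0.17, limma adjusted p = 0.0432). None of these 4 genes had overlapping arrays. Sulf2 (-0.79, SE 0.20, limma adjusted p = 0.0538), B3galnt1 (0.69, limma adjusted p = 0.0625), Gcnt2 (0.84, limma adjusted p = 0.0732) and Has2 (0.81, limma adjusted p = 0.0782) were next, and Sulf2 passed with each array centred on its median, which turned the calls over all rows from 217 higher and 185 lower to 123 and 282. The heparan sulfate genes did not pass, with differences from -0.74 to 0.67, and the same 14 glycosaminoglycan genes had a median of 0.00. B4galt1 differed by 0.49 (SE 0.19, limma adjusted p = 0.137), while Lalba, which encodes its partner alpha-lactalbumin and is not a member of these families, fell by 1.30 (SE 0.22, limma adjusted p = 0.0201).

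In the same comparison 7 of 11 measured alveolar and milk genes were lower and 18 of 23 cell cycle genes higher in CD24highCD49fmed cells. Of 7 measured hormone-sensing luminal markers 1 was higher. The mean of these 7 was 1.75 to 2.14 in the CD24highCD49fmed arrays and 0.83 and 1.43 in the CD24medCD49f-/low arrays. The part of these lists in the differences of the glycan genes was not tested. Of 17 proteoglycan core genes 2 were lower, and of 12 mucin and mucin-like genes 2 were lower, with medians of -0.31 and 0.19. Of 17 donor and 9 transporter genes 1 and 1 were higher, with medians of 0.28 and 0.31. Over all rows 3.02% were higher and 2.57% lower, with a median of 0.14.

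The calls between the luminal populations rested on few arrays. Of the 44 genes, 0 passed without CD24highCD49fmed replicate 3 (0.0417% of all rows did) and 2 without CD24highCD49fmed replicate 2 (2.02% of all rows). Leaving out either CD24medCD49f-/low array left 1 array of that population, so calls without it are not given. The median difference of the 44 genes was then 0.04 without replicate 1 and 0.03 without replicate 2. When the spread was taken from all 14 arrays 0 passed (0.0556% of all rows). In that fit 2 genes had an unadjusted p under 0.05, as did 327 of 7190 rows. The mean of 6 measured myeloid markers was 2.20 in CD24medCD49f-/low replicate 1, 0.58 in replicate 2 and -0.36 to -0.10 in the CD24highCD49fmed arrays, and its part in the 4 calls was not tested.

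**Figure D4:**
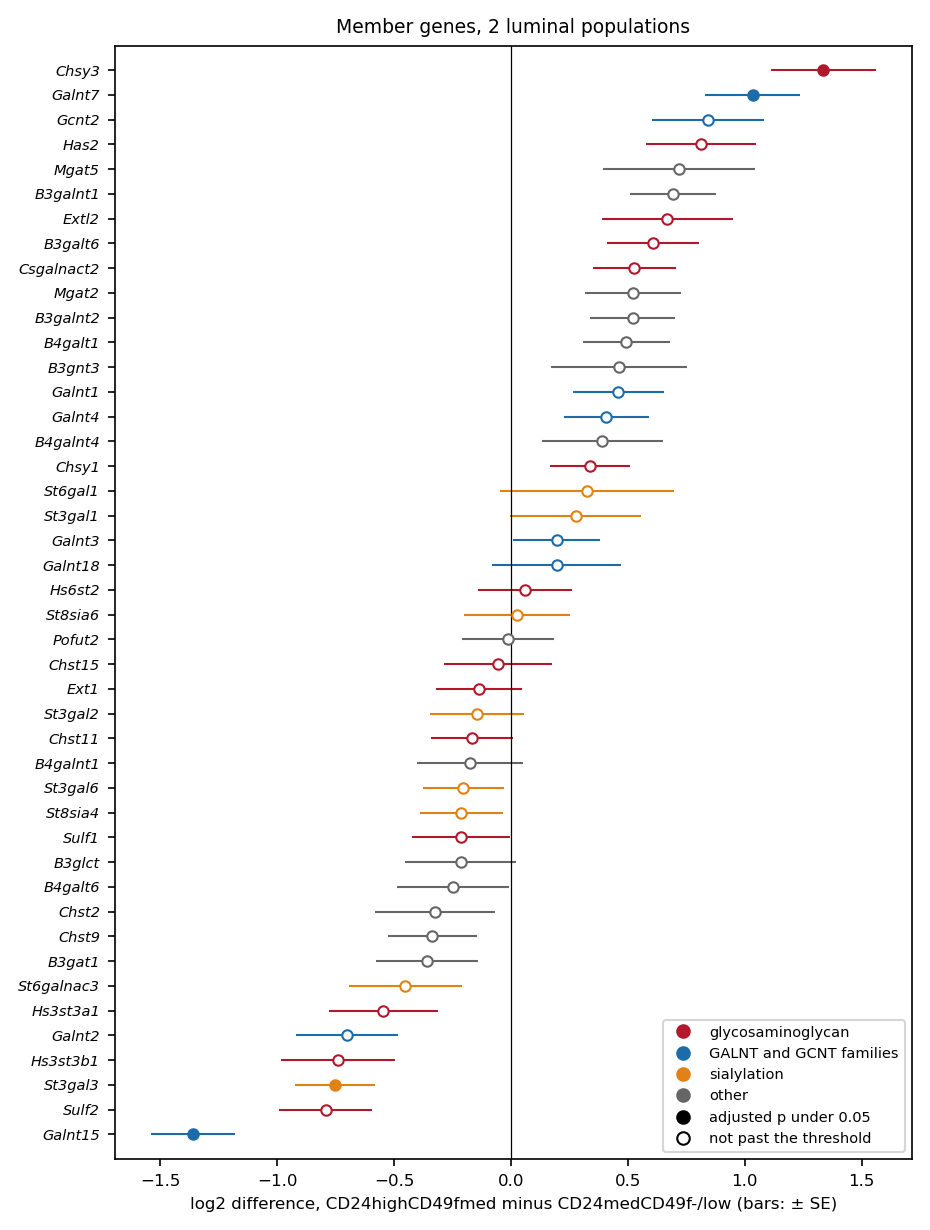
Difference of each of the 44 genes between CD24highCD49fmed (3 arrays) and CD24medCD49f-/low cells (2 arrays), on a log2 scale with bars of ± SE, coloured by family, with filled points for an adjusted p under 0.05. Chsy3 (1.34) and Galnt7 (1.03) lie highest and Galnt15 (-1.36) lowest.

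Comparisons among the basal populations asked whether Thy-1 marks cells with other levels of these genes. Between the Thy-1+CD24medCD49fhigh arrays and those of Thy-1-CD24medCD49fhigh 0 of the 44 genes passed with limma (0.0417% of all rows did), 5 had an unadjusted p under 0.05 (5.29% of all rows) and 1 was called by rank products, the method of the study (2.27%, against 2.25% of all rows). Hs3st3a1 differed by -2.23 (SE 0.74, limma adjusted p = 0.699), Has2 by -1.53 (SE 0.71, limma adjusted p = 0.755) and Galnt4 by -1.53 (SE 0.71, limma adjusted p = 0.755). The SEs of this fit came mostly from a spread shared by all rows and not from each gene. The SD of Hs3st3a1 itself was 2.36 in the Thy-1+CD24medCD49fhigh and 0.66 in the Thy-1-CD24medCD49fhigh arrays. St6galnac3 had the largest positive difference, 1.23 (SE 0.71, limma adjusted p = 0.755) and 0.29 without Thy-1+CD24medCD49fhigh replicate 1, and St8sia4 (0.89) and Galnt15 (0.76) followed. The median difference was -0.54 for the 44 genes and -0.42 for all rows, and -0.13 and -0.01 after median centring. The arrays did not overlap for 3 genes (6.66% of all rows), Galnt15, which was higher, and Galnt3 and St3gal2, which were lower.

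Between Thy-1+CD24medCD49fhigh and CD24medCD49fmed cells 0 genes passed with limma (0% of all rows), 5 had an unadjusted p under 0.05 (5.33% of all rows) and rank products called 2 (4.55%, against 2.04% of all rows). The differences with the smallest p were again those of Hs3st3a1 (-2.65, SE 0.89), Has2 (-1.77, SE 0.72) and Galnt4 (-1.83, SE 0.75), each with a limma adjusted p of 0.548. Both comparisons share the Thy-1+CD24medCD49fhigh arrays. With the replicate number as a block, which treats arrays of equal number as pairs, Hs3st3a1 alone of the 44 passed, beside 0.765% of all rows (-2.65, SE 0.55, limma adjusted p = 0.00177). The SE of this fit was 1 common value for every row. Without Thy-1+CD24medCD49fhigh replicate 2, 9 genes (20.5%) were lower past the threshold, where 10.8% of all rows were lower. They were Hs3st3a1, Has2, Galnt4, Hs6st2, Chsy1, Csgalnact2, B4galt6, Gcnt2 and Mgat2. B3gat1 (0.72), St6galnac3 (0.59) and Mgat5 (0.27) had positive differences that did not pass. The arrays did not overlap for 4 genes (8.86% of all rows), Chsy3, Galnt1, Gcnt2 and Hs3st3b1, all lower.

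Between Thy-1-CD24medCD49fhigh and CD24medCD49fmed cells 0 genes passed with limma (0% of all rows), 0 had an unadjusted p under 0.05 (1.17% of all rows) and rank products called 1 (2.27%, against 2.24% of all rows). That gene was St8sia4 (-1.50, SE 0.70, limma adjusted p = 0.999). The medians were -0.06 for the 44 genes and -0.07 for all rows. Of the genes with negative differences Galnt1 (-0.53) and Galnt15 (-0.82) had the next smallest p-values, and of those with positive differences B4galnt1 (0.39), Pofut2 (0.39) and B3galt6 (0.42) had the smallest, and none passed. Galnt1 was the 1 gene of 44 whose arrays did not overlap (3.74% of all rows).

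The arrays of Thy-1+CD24medCD49fhigh cells differed among themselves. In replicates 1 and 3, but not in replicate 2, 23 of the 44 genes (52.3%, against 30.8% of all rows) were below all 6 arrays of the other basal populations, a count chosen after the values were seen. They included Hs3st3a1, Hs3st3b1, Hs6st2, Ext1, Chsy1, Sulf1 and Has2. The medians of the 44 genes were -0.35, 0.62 and -0.57 in the 3 arrays, beside -0.74, 0.08 and -0.51 over all rows, and 0.23 to 0.77 in the other 6 basal arrays. The mean of 10 cornified keratinocyte markers was 3.13 in replicate 3, and those of pericyte and Schwann cell markers were 2.27 in replicate 1 and 1.75 in replicate 3, the highest of all 14 arrays for each list. Their part in the low values was not tested.

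**Figure D5:**
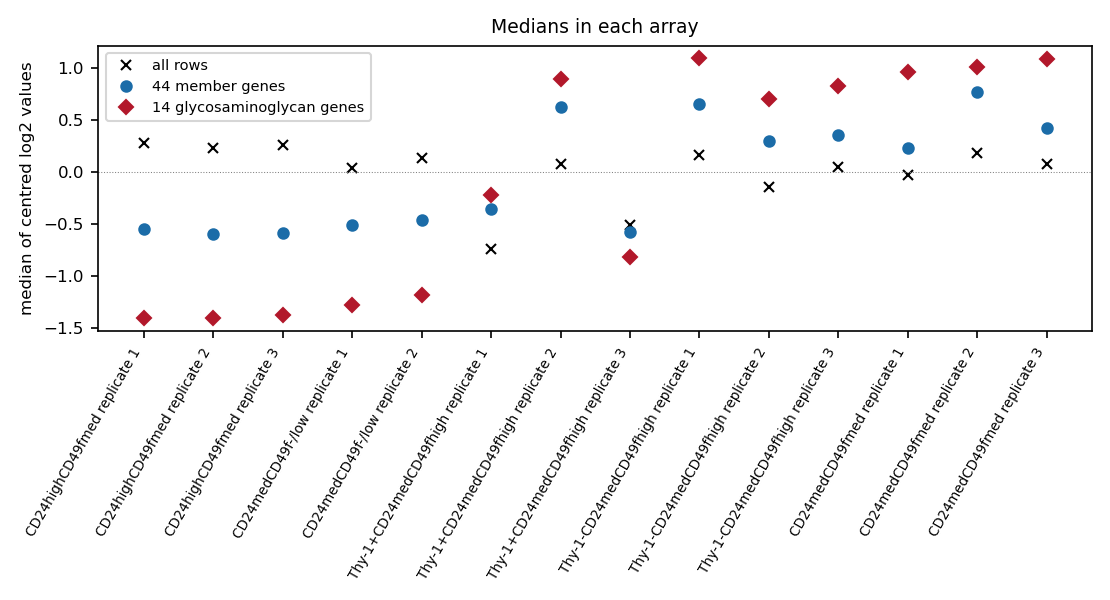
Median of the 44 genes, of the 14 glycosaminoglycan genes among them and of all 7190 rows in each array (centred log2 values). The glycosaminoglycan median lies between -1.40 and -1.18 in the 5 luminal arrays, at -0.22 and -0.82 in Thy-1+CD24medCD49fhigh replicates 1 and 3 and between 0.70 and 1.09 in the other 7 basal arrays.

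Across all 5 populations the limma F test called 26 of the 44 genes (59.1%, against 33.3% of all rows), and 25 of them had also passed between luminal and basal cells. The remaining gene was Chsy3 (limma adjusted p = 0.0127), whose population means were 1.00 (SD 0.27, n = 3) in CD24highCD49fmed, -0.34 (SD 0.26, n = 2) in CD24medCD49f-/low, 0.11 (SD 0.18, n = 3) in CD24medCD49fmed, 0.04 (SD 0.30, n = 3) in Thy-1-CD24medCD49fhigh and -0.92 (SD 0.67, n = 3) in the Thy-1+CD24medCD49fhigh population. On this mean of 2 probe sets all 3 CD24highCD49fmed arrays were above each array of the other populations. Of the probe sets, 1 had 1.81, 1.70 and 1.74 in these arrays and -0.03 or less elsewhere, and the other had 0.81, -0.01 and -0.06, within or below its values of 0.69, 0.86 and 0.67 in the CD24medCD49fmed arrays. The 13 genes that neither test called were B3galnt2, B3galt6, B3gat1, Chst9, Csgalnact2, Galnt4, Galnt7, Galnt18, Gcnt2, Mgat2, Pofut2, St3gal3 and St6galnac3.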

How the data were processed

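The authors deposited 1 table of log2 values for 14 arrays: per the study's methods, RMA normalization was run in MIDAS (TM4 suite), Cluster 3.0 kept probe sets with enough signal and a difference of at least 4-fold, and the mean of each kept probe set was set to 0. GCRMA is also named in the submitters' processing notes. The versions of RMA and MIDAS were not given in the sources used here. The deposited log2 rows had a mean of 0 and a range of at least 2.0. Of 9645 probe sets, 8499 with a single symbol were averaged per gene to 6044 genes, and 199 with several symbols and 947 with none stayed as single rows, so that 7190 rows were tested. Centred values allow no filter on dim probes and no comparison of levels between genes. All 44 genes kept their symbol in RefSeq by Entrez ID.

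Groups came from the labels. Tests used limma 3.58.1 (linear models with moderated variances, R 4.3.3), two-sided, with Benjamini-Hochberg adjustment over all rows and a threshold of 0.05. Luminal against basal and the F test used all 14 arrays, and pairs of populations used their own arrays. The tests were checked on simulated data. The genes and lists were chosen with earlier results of these data known. Genes described in full were the called genes with the 14 largest falls and up to 14 largest rises between luminal and basal cells, all called genes between the luminal populations, the 3 each way with the smallest p in a basal pair with no call, genes called only by the F test, a list of well-known family members, and up to 3 called genes each way for each list of related genes. Genes named beyond these were chosen after their values were seen. Alternatives were a block for the replicate number, array weights, all arrays in 1 fit, single probe sets, median centring, quantile normalization, a minimum size of 1 for the log2 difference, rank products (100 permutations, p under 0.01, unadjusted, in Python 3.11.15 with numpy 2.4.6) and each array left out in turn.

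To see if equal replicate numbers meant paired arrays, deviations from the population means were correlated over all rows. Arrays of equal number gave r = 0.388, 0.391 and 0.386 for Thy-1+CD24medCD49fhigh with CD24medCD49fmed. They gave 0.374, 0.328 and 0.558 for Thy-1-CD24medCD49fhigh with CD24medCD49fmed. For Thy-1+CD24medCD49fhigh with Thy-1-CD24medCD49fhigh the values were -0.002, -0.160 and 0.245. Correlations between arrays of unequal number were not computed, so these values cannot show whether equal numbers meant paired arrays. The 2 shared numbers of the luminal populations were taken as numbers only. Precision is limited by the 2 or 3 arrays of a population. Promoter sequences are RefSeq's (GRCm38.p6).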

Additional observations from a re-analysis of the deposited data

How the results depend on the processing

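Between luminal and basal cells 24 of the 30 calls held in all 20 limma settings on gene means, and the exceptions were B3gnt3, B4galnt4, Extl2, Galnt1, Galnt2 and St8sia4. Rank products called 19 of the 44 genes (17.2% of all rows), and leaving out 1 array gave 26 to 34 (29.5% to 59.4% of all rows). Between CD24highCD49fmed and CD24medCD49f-/low cells the count of 4 became 0 with all 14 arrays in 1 fit (0.0556% of all rows). It became 8 with the replicate block (11.5%), 7 with array weights (10.1%) and 2 with rank products (6.59%). Leaving out 1 CD24highCD49fmed array gave 0 to 5 (0.0417% to 9.21% of all rows). Between the Thy-1+CD24medCD49fhigh arrays and those of Thy-1-CD24medCD49fhigh the count of 0 became 3 with array weights (Hs3st3a1, Has2 and St8sia6, beside 2.77% of all rows) and 1 with rank products (Hs3st3a1, beside 2.25%). Between Thy-1+CD24medCD49fhigh and CD24medCD49fmed cells it became 1 with the replicate block (0.765% of all rows) and 2 with rank products (Hs3st3a1 and Galnt4, beside 2.04%), and ran from 0 to 9 (11.9% of all rows at 9) when 1 array was left out. Between Thy-1-CD24medCD49fhigh and CD24medCD49fmed cells rank products gave 1 (2.24% of all rows). The F test count ran from 22 to 39 (21.9% to 65.2% of all rows) when 1 array was left out, the highest without Thy-1+CD24medCD49fhigh replicate 2, and was 29 with the replicate block (38.2%). Between Thy-1+CD24medCD49fhigh and CD24medCD49fmed cells leaving out 1 array put the difference of St6galnac3 between -0.35 and 1.13 and that of Mgat5 between -0.017 and 0.42, the negative values coming without Thy-1+CD24medCD49fhigh replicate 1 and without CD24medCD49fmed replicate 1. Between luminal and basal cells the replicate block ended the call of Galnt2 and made one of St6galnac3. Apart from the counts given above for the luminal populations (4 to 8) and for Thy-1+CD24medCD49fhigh against CD24medCD49fmed cells (0 to 1), the replicate block moved no count of these genes by over 1.5 times. The causes were not tested. Signal over background is not in the centred values, so the number of arrays is the limit that can be seen.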
